A study of Mus musculus with 48 samples.

Results

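A set of 10 chromosome genes was followed through livers expressing mutant β-catenin, MYC or both: *Top2a*, *Mki67* and the 8 condensin subunit genes *Smc2*, *Smc4*, *Ncapd2*, *Ncapd3*, *Ncapg*, *Ncapg2*, *Ncaph* and *Ncaph2*. They were matched by mouse gene symbol, through the gene identifiers of the RNA tables, and are 10 of the 20622 genes with an RNA measurement and 10 of the 16269 with a transcript counted for ribosome-protected fragments (RPFs). All 10 were found, all 10 had RPFs in every library, and all 10 passed the filter on low counts in each comparison. The set was selected on the measured translation efficiency (TE) of 2 of its genes, because that of *Top2a* rose strongly in these data while that of *Mki67* did not. For those 2 genes all values are therefore a description, with no test, and the tests are on the condensin genes. RPFs of *Ncapg* in WT liver of day 4 were below the filter's minimum of 10 counts in 3 of 3 mice, and of day 10 in 2 of 3, so against WT the gene passed only with the libraries of the other genotype. The same held for *Ncaph* in M and BM at day 10. In those comparisons RPFs and TE of these genes are left out of the counts.

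The livers came from male mice aged 2 to 4 months, 3 in each of 8 groups, 24 in all. The genotypes were Wild-type (WT), Ctnnb1ex3/+ (B), in which Cre removes an exon of one β-catenin allele and leaves a stable protein, R26-LSL-MYC (M), in which Cre switches on a MYC transgene, and Ctnnb1ex3/+; R26-LSL-MYC (BM). Every mouse, WT included, was injected with AAV8.TBG.Cre, a virus that drives Cre from a hepatocyte promoter, and livers were taken 4 or 10 days later, so recombination was directed to hepatocytes but whole liver tissue was measured. Each mouse gave 1 RPF library and 1 library of cytoplasmic RNA from the same lysate, 48 libraries in all, and the injections were timed apart so that all mice were harvested together.

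Topoisomerase IIα, encoded by *Top2a*, cuts and reseals both strands of DNA so that sister chromatids can be untangled, and its paralog *Top2b* does similar work in cells that do not divide. Condensins are rings that fold chromatin into loops as cells enter mitosis: condensin I and condensin II share the ATPases encoded by *Smc2* and *Smc4* and differ in their other subunits, *Ncapd2*, *Ncapg* and *Ncaph* in condensin I and *Ncapd3*, *Ncapg2* and *Ncaph2* in condensin II. The product of *Mki67*, the antigen Ki-67 used to stain cycling cells, coats the surface of mitotic chromosomes and keeps them apart. Most hepatocytes of an adult liver are not cycling.

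On GRCm39, *Top2a* lies on the minus strand of chromosome 11 (98883769 to 98915062) and *Mki67* on the minus strand of chromosome 7 (135291513 to 135318299). The shared condensin genes *Smc2* and *Smc4* lie on the plus strands of chromosome 4 (52439214 to 52488264) and chromosome 3 (68911944 to 68941960). Those of condensin I are *Ncapd2* on chromosome 6 (125144962 to 125169080, minus), *Ncapg* on chromosome 5 (45827150 to 45859062, plus) and *Ncaph* on chromosome 2 (126945729 to 126975874, minus). Those of condensin II are *Ncapd3* on chromosome 9 (26941456 to 27006626, plus), *Ncapg2* on chromosome 12 (116368940 to 116427351, plus) and *Ncaph2* on chromosome 15 (89239895 to 89257056, plus). The genes are thus on 10 different chromosomes.

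The 250 bases before the annotated gene start were searched on both strands for 3 short motifs of cell cycle promoters: TTTGAA (the core of the CHR element), CCAAT (the site of NF-Y) and GCGGGAA (an E2F-type site). The windows of *Top2a* and *Mki67*, shown because their RNA levels in resting liver differed most, are the 2 that hold no annotated exon of another gene. Matches are in capitals, ATTGG being CCAAT on the other strand, and both windows are read 5′ to 3′ along the minus strand of GRCm39, chr11:98915063-98915312 for *Top2a* and chr7:135318300-135318549 for *Mki67*.
*Top2a*: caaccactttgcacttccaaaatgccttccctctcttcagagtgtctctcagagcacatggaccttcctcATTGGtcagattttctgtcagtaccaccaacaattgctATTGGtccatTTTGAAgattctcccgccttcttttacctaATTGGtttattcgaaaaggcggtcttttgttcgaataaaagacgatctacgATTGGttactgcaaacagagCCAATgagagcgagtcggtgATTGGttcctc
*Mki67*: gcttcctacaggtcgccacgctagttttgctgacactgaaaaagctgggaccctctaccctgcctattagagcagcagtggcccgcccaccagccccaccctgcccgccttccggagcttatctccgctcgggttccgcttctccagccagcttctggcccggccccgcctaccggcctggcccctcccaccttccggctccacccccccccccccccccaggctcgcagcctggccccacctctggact

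*Top2a* held 6 CCAAT matches, the nearest beginning 11 bases before the start, and 1 TTTGAA match beginning 132 bases before it, none overlapping another. *Mki67* held none of the 3 motifs in these letters. Among the 10 genes, 3 held TTTGAA, 3 held CCAAT and 2 held GCGGGAA, against 15.6%, 35.1% and 4.78% of 16264 windows.

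RPF libraries held 9742197 to 14380713 counts and RNA libraries 3254141 to 6540116. Levels are given as CPM, counts scaled to library size by edgeR's TMM method, and TE is RPF CPM divided by RNA CPM in the same mouse. The livers carried hepatocyte transcripts: *Alb* had between 17980 and 71614 RNA CPM over the 24 mice. Low RPF counts limit the WT values, with 8, 4 and 4 *Ncapg* RPFs and 30, 24 and 37 *Top2a* RPFs in the 3 WT mice of day 4. In 6 of the 8 groups 1 mouse was the highest of its group in RPFs of at least 8 of the 10 genes: BM mouse 1 of day 4 and M mouse 3 of day 10 for 10 genes, B mouse 3 of day 10 for 9, and B mouse 2 of day 4, WT mouse 2 of day 10 and BM mouse 1 of day 10 for 8 each. Counts without them are given beside many, but not all, of the results. Since whole liver was measured, more dividing cells and more RNA or RPFs in each cell cannot be told apart.

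*Top2a* RNA was abundant in WT liver while its RPFs were scarce. On day 4 its RNA stood at 51.2, 73.1 and 61.9 CPM in the WT mice and its RPFs at 2.76, 2.91 and 4.18 CPM. In M liver its RNA was 76.0, 81.1 and 100 CPM and its RPFs 32.4, 41.1 and 42.6 CPM. Both measures lay above every WT mouse, the RNA narrowly and the RPFs by a wide margin. In BM liver its RNA was 215, 139.7 and 172 CPM and its RPFs 181, 112 and 128 CPM, the highest of all groups. The RNA mean of BM was 2.82 times that of WT, whereas the RPF mean was 42.7 times. Mean TE (± SD of 3 mice) went from 0.0538 ± 0.0139 in WT to 0.453 ± 0.0467 with MYC and 0.796 ± 0.0487 with both alleles, and no mouse of one genotype fell within the range of another.

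*Mki67* RNA, in contrast, was scarce in WT liver and rose with its RPFs. On day 4 its RNA was 4.90, 4.17 and 4.56 CPM in WT mice, 34.8, 53.8 and 48.6 CPM in M mice and 315, 197 and 211 CPM in BM mice. Its RPFs were 2.21, 1.21 and 2.60 CPM in WT, 22.2, 36.0 and 32.9 CPM in M and 156, 90.9 and 104 CPM in BM. On either measure the 3 genotypes formed separate steps with no overlap. The BM mean was 53.0 times the WT mean for RNA and 58.2 times for RPFs. TE stood at 0.437 ± 0.140 in WT, 0.661 ± 0.0202 in M and 0.483 ± 0.0178 in BM, so that the BM mice lay within the WT range and the M mice above both. The fitted log2 TE change in BM was 0.12 ± 0.46 for *Mki67* beside 3.93 ± 0.31 for *Top2a* (± SE); in M the pair was 0.60 ± 0.41 and 3.13 ± 0.25.

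**Figure D1:**
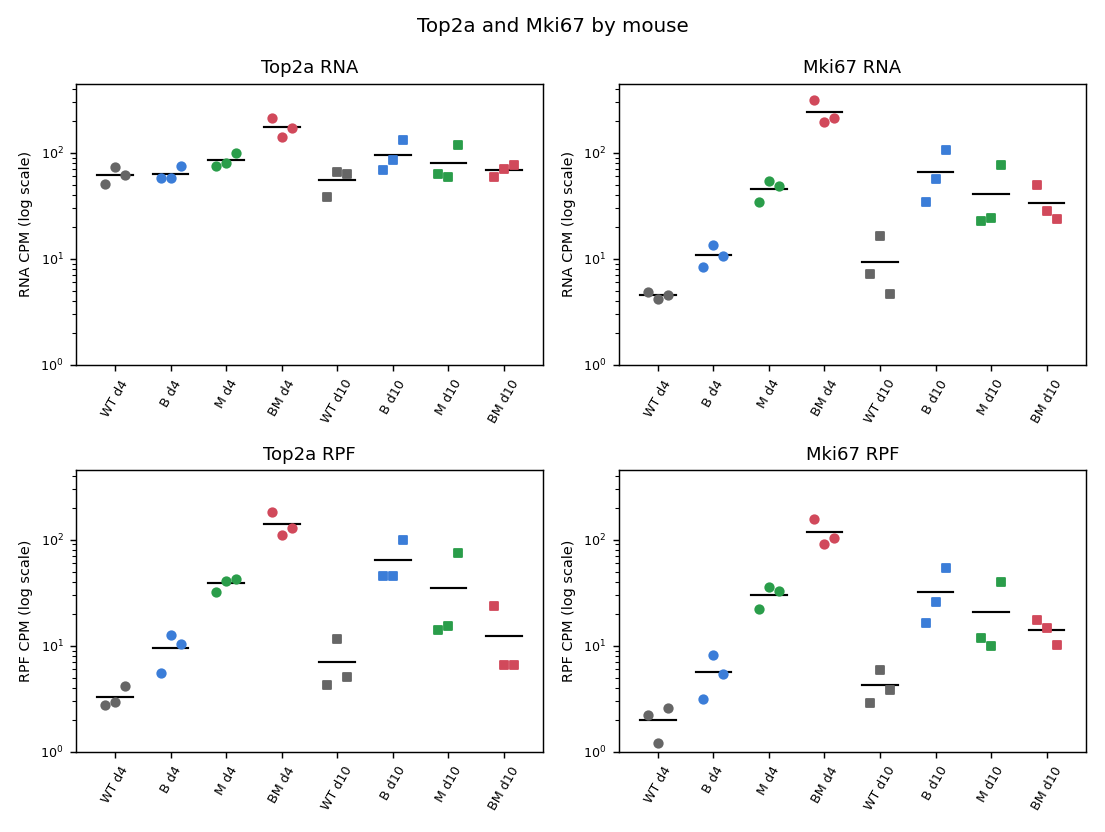
RNA and RPF levels of Top2a and Mki67 in CPM on a log axis, 1 point a mouse (circles day 4, squares day 10) and a bar at the group mean. Top2a RNA in WT mice lay between 38.3 and 73.1 CPM with RPFs of at most 11.7, whereas Mki67 RNA and RPFs were both low in WT and both highest in BM at day 4.

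The added RPFs of *Top2a* were set against its added RNA. Over the WT mean of day 4, M liver gained 35.4 RPF CPM and 23.6 RNA CPM, a ratio of 1.50, and BM liver gained 137 and 113, a ratio of 1.21. Both ratios were far from the WT ratio of 0.0538 of RPFs to RNA. For *Mki67* the gains had ratios of 0.689 in M and 0.486 in BM, over its WT ratio of 0.437. *Ncapg* had gain ratios of 1.53 and 1.41 over a WT ratio of 0.0929, while *Ncaph2* had 0.453 and 0.755 over 0.798. The other condensin genes had BM gain ratios of 0.941 (*Smc2*), 0.650 (*Smc4*), 3.44 (*Ncapd2*), 1.60 (*Ncapd3*), 1.09 (*Ncapg2*) and 1.84 (*Ncaph*). In the same order, their WT ratios were lower, at 0.260, 0.391, 0.253, 0.753, 0.407 and 0.485. These are ratios of group means, given without a test.

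**Figure D2:**
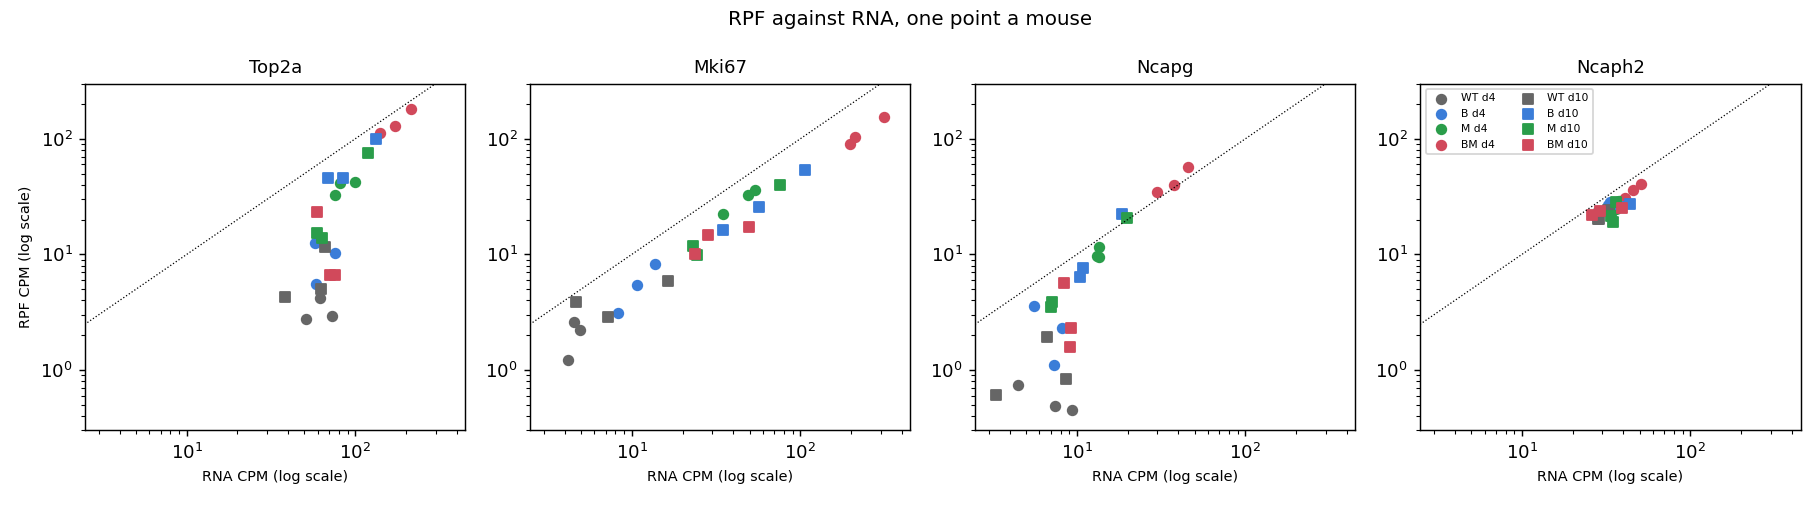
RPF CPM against RNA CPM on log axes for Top2a, Mki67, Ncapg and Ncaph2, 1 point a mouse, coloured by genotype (circles day 4, squares day 10), with a dotted line where both are equal. Mki67 lies at a TE of 0.291 to 0.824 over its whole range of RNA, whereas for Top2a and Ncapg the WT mice lie far below it (mean TE of 0.0538 and 0.0929 at day 4) and the BM mice of day 4 near it (0.796 and 1.15).

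The condensin genes were compared with WT by edgeR's quasi-likelihood test, adjusted over all genes tested by the Benjamini-Hochberg method, and called at an adjusted p under 0.1. In M liver at day 4, RNA of 6 of the 8 rose, beside 13.5% of all genes tested, and RPFs of 6 of the 7 counted, beside 18.5%. In BM liver, RNA of 8 of 8 rose, beside 21.3%, and RPFs of 7 of 7, beside 26.2%. The median log2 change in BM was 1.83 for RNA of the 8 genes and 3.27 for RPFs of the 7, against medians over all genes of -0.0064 and -0.00072. TE rose for 3 of the 7 in M (*Smc2*, *Smc4* and *Ncapd2*), beside 0.884% of all genes, and for 2 of the 7 in BM (*Smc2* and *Ncapd2*), beside 1.71%. With the mouse as a replicate block, which joins the 2 libraries of a mouse, 4 were called in M, beside 1.75% of all genes in the same fit, and 6 in BM, beside 3.77%, *Ncaph2* being the one left out in BM. The block thus also called more of all genes. The TE count in M was 1 without WT mouse 2 or 3 or M mouse 1 or 2 and 2 without either of the others, beside 0.394% to 0.86% of all genes, and DESeq2 called RNA of 3 of the 8 in M, beside 8.9%. Without BM mouse 1 the RNA count in BM stayed at 8 and the RPF count at 7, beside 17.7% and 23.6%, and the TE count was 4, beside 1.57%; without WT mouse 3 the TE count was 1, beside 0.762%. BM and M are compared with the same WT mice, so their counts are not independent.

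*Ncapd2*, a HEAT-repeat subunit, had RNA of 15.8, 22.2 and 20.9 CPM in WT mice of day 4, 17.9, 20.0 and 22.2 in M and 43.8, 31.6 and 38.5 in BM. Its RPFs were 4.41, 4.49 and 5.76 CPM in WT, 19.5, 22.7 and 22.5 in M and 89.3, 53.8 and 61.1 in BM. RNA of M and WT mice overlapped, but their RPFs did not. Exons of *Ncapd2* share 317 bases with *Mrpl51* on the opposite strand, and the strand setting of the RNA counting is not given in the sources used here, so RNA reads of the pair cannot be told apart there. In M the RNA change was 0.03 ± 0.16 (log2 ± SE, adjusted p = 0.931 by edgeR) and the RPF change 2.18 ± 0.14 (adjusted p = 2.2e-05). TE rose by 2.15 ± 0.22 in M (adjusted p = 7.91e-05) and by 2.86 ± 0.29 in BM (adjusted p = 7.88e-05).

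*Ncapg*, the second HEAT-repeat subunit of condensin I, had the fewest RPFs per kilobase of the 10 in WT liver. Its RPFs were 0.736, 0.486 and 0.452 CPM in WT mice of day 4, 9.48, 9.73 and 11.5 in M and 56.7, 34.5 and 39.9 in BM. RNA was 4.45, 7.46 and 9.36 CPM, 13.5, 13.3 and 13.6 CPM and 45.4, 29.7 and 37.9 CPM in the same order. Neither measure overlapped between the 3 genotypes. The WT values rest on 8, 4 and 4 RPFs, under the minimum of the filter, so the gene was tested in a fit with no filter on low counts, where its level does not decide whether it is tested. There its TE had a change of 3.23 ± 0.37 in M (adjusted p = 0.000136) and 3.81 ± 0.47 in BM (adjusted p = 9.97e-05). The exons of its vM39 transcript share 1943 bases with *Lcorl* on the opposite strand, with the same doubt about strand; the transcript in the files is shorter, 3703 bases against 4988.

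The kleisin subunit of condensin I, *Ncaph*, rose in RPFs by 1.95 ± 0.24 in M (adjusted p = 0.000427) and 3.71 ± 0.28 in BM (adjusted p = 2.47e-06). Its RPFs went from 2.3, 1.58 and 1.24 CPM in WT to 30.7, 16.8 and 20.4 CPM in BM, while its RNA rose by 2.09 ± 0.24 (adjusted p = 1.11e-05). The TE change of 1.61 ± 0.45 in BM missed the threshold (adjusted p = 0.11) and passed it with the mouse as block (adjusted p = 0.00162).

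Of the shared ATPases, *Smc2* was called in TE in both M and BM and *Smc4* in M. *Smc2* RNA was 17.8, 20.9 and 24.5 CPM in WT, 21.1, 22.5 and 34.2 in M and 88.3, 53.4 and 65.9 in BM, with M and WT overlapping. *Smc2* RPFs were 5.06, 6.31 and 4.75 CPM, 13.8, 13.7 and 16.8 CPM and 66.6, 40.0 and 45.5 CPM, without overlap. TE of *Smc2* rose by 1.21 ± 0.27 in M (adjusted p = 0.0502) and 1.53 ± 0.32 in BM (adjusted p = 0.0174). *Smc4* RNA was 35.2, 43.5 and 44.4 CPM in WT and 206, 128 and 135 CPM in BM, and its RPFs 14.6, 17.6 and 15.6 CPM and 120.2, 73.3 and 79.8 CPM. In BM its RNA and RPF changes were closer to each other, 1.93 ± 0.17 and 2.54 ± 0.18. *Smc4* TE changed by 0.74 ± 0.17 in M (adjusted p = 0.0522) and had a value of 0.60 ± 0.28 in BM (adjusted p = 0.489).

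Condensin II had no TE call in M or BM without the block. With the block, *Ncapd3* and *Ncapg2* were called in BM. Without it their unadjusted p there was 0.0177 and 0.0325 by edgeR. *Ncapg2* RPFs were 1.93, 1.09 and 1.92 CPM in WT mice of day 4, 13.9, 9.42 and 13.9 in M and 39.2, 19.9 and 24.2 in BM, and its RNA rose by 2.67 ± 0.31 in BM, the largest RNA change of the 8 (adjusted p = 1.61e-05). Its TE change of 1.38 ± 0.37 in M had an adjusted p = 0.139. *Ncapd3* RPFs were 7.08, 6.80 and 8.25 CPM in WT and 33.1, 21.6 and 22.9 CPM in BM, a rise of 1.83 ± 0.18 (adjusted p = 1.29e-05). *Ncaph2*, the kleisin of condensin II, had the smallest RPF change of the 8 in both M and BM. *Ncaph2* RPFs were 23.7, 21.1 and 24 CPM in WT, 28.9, 24.5 and 26.1 in M and 40.7, 30.8 and 35.9 in BM, and its RNA 28.3, 27.7 and 30.2 CPM, 37.4, 36.0 and 36.2 CPM and 50.9, 41.0 and 45.4 CPM. Its RPF change was 0.24 ± 0.10 in M (adjusted p = 0.122) and 0.66 ± 0.12 in BM (adjusted p = 0.000796), and its TE value in BM was -0.02 ± 0.17 (adjusted p = 0.996). Exons of *Ncaph2* share 2001 bases with *Tymp* and *Sco2* and those of *Ncapd3* share 750 bases with *Jam3* and 468 with *Vps26b*, all on the opposite strand.

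**Figure D3:**
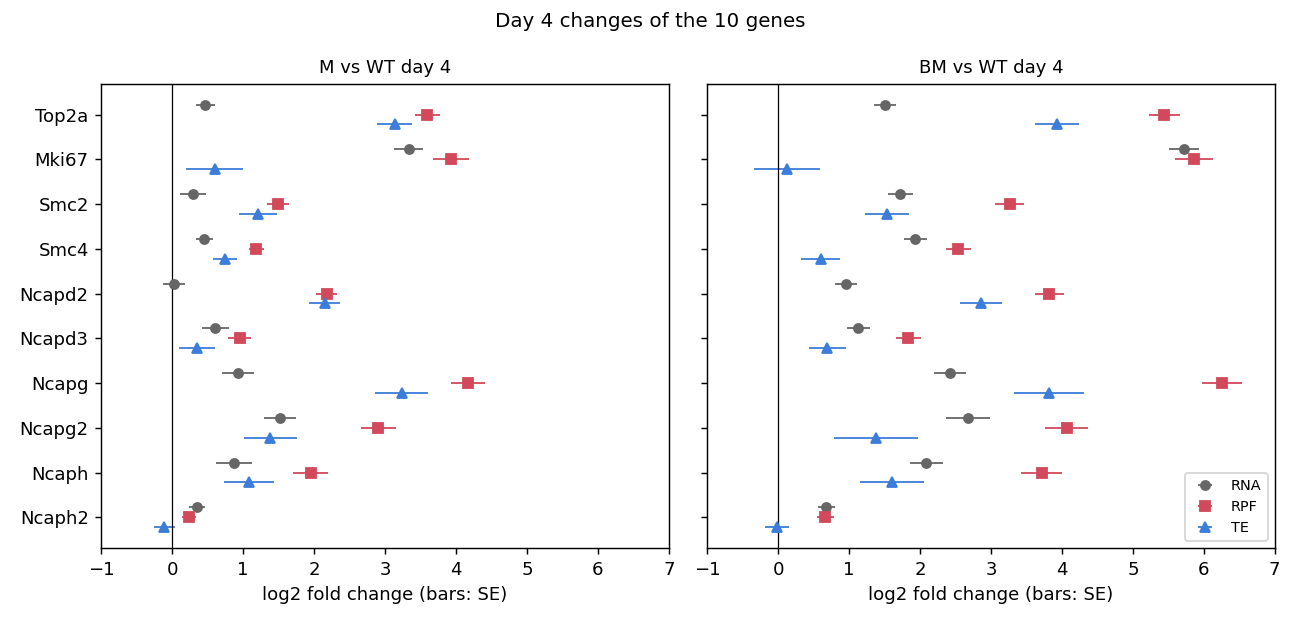
Fitted log2 fold changes of RNA, RPF and TE (bars, SE) for the 10 genes in M and BM liver against WT at day 4. RPF changes exceed RNA changes for every gene except Ncaph2 in both panels, by most for Top2a, Ncapd2 and Ncapg. Top2a was chosen on its TE, and RPFs of Ncapg in WT were below the filter. The markers of Mki67 and Ncaph2 for RNA and RPF in BM nearly coincide (5.72 and 5.86, and 0.68 and 0.66).

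With both alleles the condensin levels were higher than with MYC alone at day 4. Against M liver, RNA of 8 of the 8 condensin genes was higher in BM, beside 14.6% of all genes, and RPFs of 8 of 8, beside 18.8%. The RPF changes ran from 0.42 ± 0.11 (*Ncaph2*, adjusted p = 0.0218) to 2.08 ± 0.18 (*Ncapg*, adjusted p = 5.67e-05). TE of 0 of 8 was called by edgeR or by DESeq2, beside 0.0377% of all genes, with 2 of 8 at an unadjusted p under 0.05, and 2 were called with the mouse as block, beside 1.37% of all genes in that fit, *Ncapd2* at 0.70 ± 0.13 (adjusted p = 0.00252) and *Ncapg* at 0.59 ± 0.15 (adjusted p = 0.043). Without BM mouse 1 the RNA count was 6, beside 10.1% of all genes, and the RPF count stayed at 8, beside 15.3%. *Top2a* and *Mki67* had RPF values of 1.84 ± 0.17 and 1.92 ± 0.21.

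B liver of day 4 was compared with the same WT mice, whose values entered the choice of the set, so *Top2a* and *Mki67* are described without a test. *Mki67* RNA was 8.31, 13.7 and 10.8 CPM and its RPFs 3.13, 8.21 and 5.45 CPM, both above every WT mouse. *Top2a* RPFs were 5.52, 12.6 and 10.3 CPM, above every WT mouse, while its RNA of 58.4, 57.6 and 75.8 CPM overlapped WT. *Top2a* TE was 0.0945, 0.219 and 0.136, also above every WT mouse, with a fitted change of 1.48 ± 0.35. Of the condensin genes, RNA of 0 of 8 was called by edgeR or DESeq2, beside 4.41% of all genes that rose, with 1 of 8 at an unadjusted p under 0.05. RPFs of 1 of the 7 counted rose, beside 6.21%: those of *Ncapg2*, at 2.57, 4.85 and 3.40 CPM, by 1.09 ± 0.31 (adjusted p = 0.0535). The RPF count was 0 without WT mouse 1 or 3 or B mouse 2 or 3, and 3 without B mouse 1, beside 3.63% to 6.26% of all genes in these fits. *Ncapg* RPFs were 1.10, 3.54 and 2.3 CPM, against the 8, 4 and 4 RPFs in WT, and in the fit with no filter on low counts they had a change of 1.98 ± 0.46 (adjusted p = 0.0162). TE of 0 of 7 was called by edgeR, beside 0.0293%, by DESeq2, or with the mouse as block, beside 0.117%, with 2 of 7 at an unadjusted p under 0.05 by edgeR.

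At day 10, every B mouse had more *Top2a* and *Mki67* RPFs than any B mouse of day 4. *Top2a* RPFs were 4.28, 11.7 and 5.05 CPM in WT and 45.6, 45.8 and 99.6 CPM in B, and its RNA 38.3, 65.7 and 62.6 CPM in WT and 68.7, 84.8 and 133 CPM in B. Both measures of B lay above those of WT without overlap. Its TE was 0.112, 0.177 and 0.0806 in WT and 0.664, 0.540 and 0.750 in B, again without overlap. *Mki67* RNA in the same livers was 7.25, 16.4 and 4.66 CPM in WT and 34.8, 56.8 and 107 CPM in B, and its RPFs 2.89, 5.93 and 3.85 CPM and 16.3, 25.7 and 54.2 CPM. Its TE was 0.398, 0.361 and 0.824 in WT and 0.469, 0.452 and 0.506 in B, and the B mice lay within the WT range. The fitted RPF changes were 3.18 ± 0.43 for *Top2a* and 2.93 ± 0.46 for *Mki67*, given without a test.

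Among the condensin genes of B liver at day 10, RPFs of 5 of the 7 counted were higher than in WT, beside 13.1% of all genes, *Ncapd3* and *Ncaph2* being the exceptions, and RNA of 4 of 8, beside 8.14%. *Ncaph* rose in RPFs by 2.52 ± 0.50 (adjusted p = 0.00925), *Ncapd2* by 1.53 ± 0.33 and *Smc2* by 1.36 ± 0.24. *Ncapg* RPFs were 0.612, 1.94 and 0.841 CPM in WT and 7.55, 6.4 and 22.3 CPM in B, and in the fit with no filter on low counts their change was 3.42 ± 0.56 (adjusted p = 0.00219). TE of 0 of 7 was called by edgeR or DESeq2, beside 0.0282% of all genes, with 2 of 7 at an unadjusted p under 0.05. With the mouse as block 3 were called (*Smc2*, *Ncapd2* and *Ncaph*), beside 1.32% of all genes in that fit. Without B mouse 3, the high one, the RPF count stayed at 5, beside 14.7%, and the RNA count was 1, beside 9.71%; the RNA count was also 1 without WT mouse 1 or 3, 2 without B mouse 2 and 3 without WT mouse 2, beside 4.06% to 6.55% of all genes.

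M liver at day 10 was uneven between mice. *Top2a* RPFs were 14, 15.2 and 75.5 CPM and *Mki67* RPFs 11.7, 9.96 and 40.2 CPM, with the third mouse far above the other two. *Top2a* RPFs overlapped no WT mouse of day 10, and their fitted change of 2.31 ± 0.70 was 1.07 ± 0.33 without the third M mouse. Of the 6 condensin genes counted, RPFs of 3 were higher than in WT (*Smc4*, *Ncapd2* and *Ncapg2*), beside 10.6% of all genes. *Smc4* RPFs rose by 0.94 ± 0.29 (adjusted p = 0.0723). RNA of 0 of 8 was called by edgeR, beside 8.53%, with 1 of 8 at an unadjusted p under 0.05, and of 1 by DESeq2, beside 5.49%. The RPF count stayed at 3 without the third M mouse, beside 12.9% of all genes. It was 0 without WT mouse 1 or WT mouse 3, beside 7.53% and 5.51%, and 1 without WT mouse 2, the highest WT mouse, beside 7.66%. TE of 0 of 6 was called by edgeR or DESeq2, beside 0% of all genes, with 0 of 6 at an unadjusted p under 0.05, and 1 with the mouse as block, *Smc4* (adjusted p = 0.0728), beside 0.268% of all genes in that fit.

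Every BM mouse of day 10 had fewer *Top2a* and *Mki67* RPFs than any BM mouse of day 4. *Top2a* RPFs were 23.5, 6.60 and 6.61 CPM and overlapped WT of day 10, with mouse 1 above the others. *Top2a* RNA, at 59.2, 71.1 and 76.4 CPM, also overlapped WT. *Mki67* RPFs were 17.3, 14.8 and 10.2 CPM, without overlap with WT. RPFs of 4 of the 6 condensin genes counted were higher than in WT (*Smc4*, *Ncapd2*, *Ncapd3* and *Ncapg2*), beside 24.5% of all genes, and RNA of 3 of 8 (*Smc4*, *Ncapd3* and *Ncapg2*), beside 22.9%. *Smc4* RPFs were 49.1, 46.0 and 50.0 CPM and also stood apart from WT (1.2 ± 0.16, adjusted p = 0.00164), while those of its partner *Smc2*, at 10.6, 7.68 and 6.53 CPM, overlapped WT (-0.02 ± 0.24, adjusted p = 0.942). TE of 0 of 6 was called by edgeR, beside 0.115% of all genes, by DESeq2, or with the mouse as block, beside 2.38%, with 0 of 6 at an unadjusted p under 0.05 by edgeR. Without BM mouse 1 the RPF count stayed at 4, beside 33.4% of all genes, and without WT mouse 3 it was 2, beside 15.8%.

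**Figure D4:**
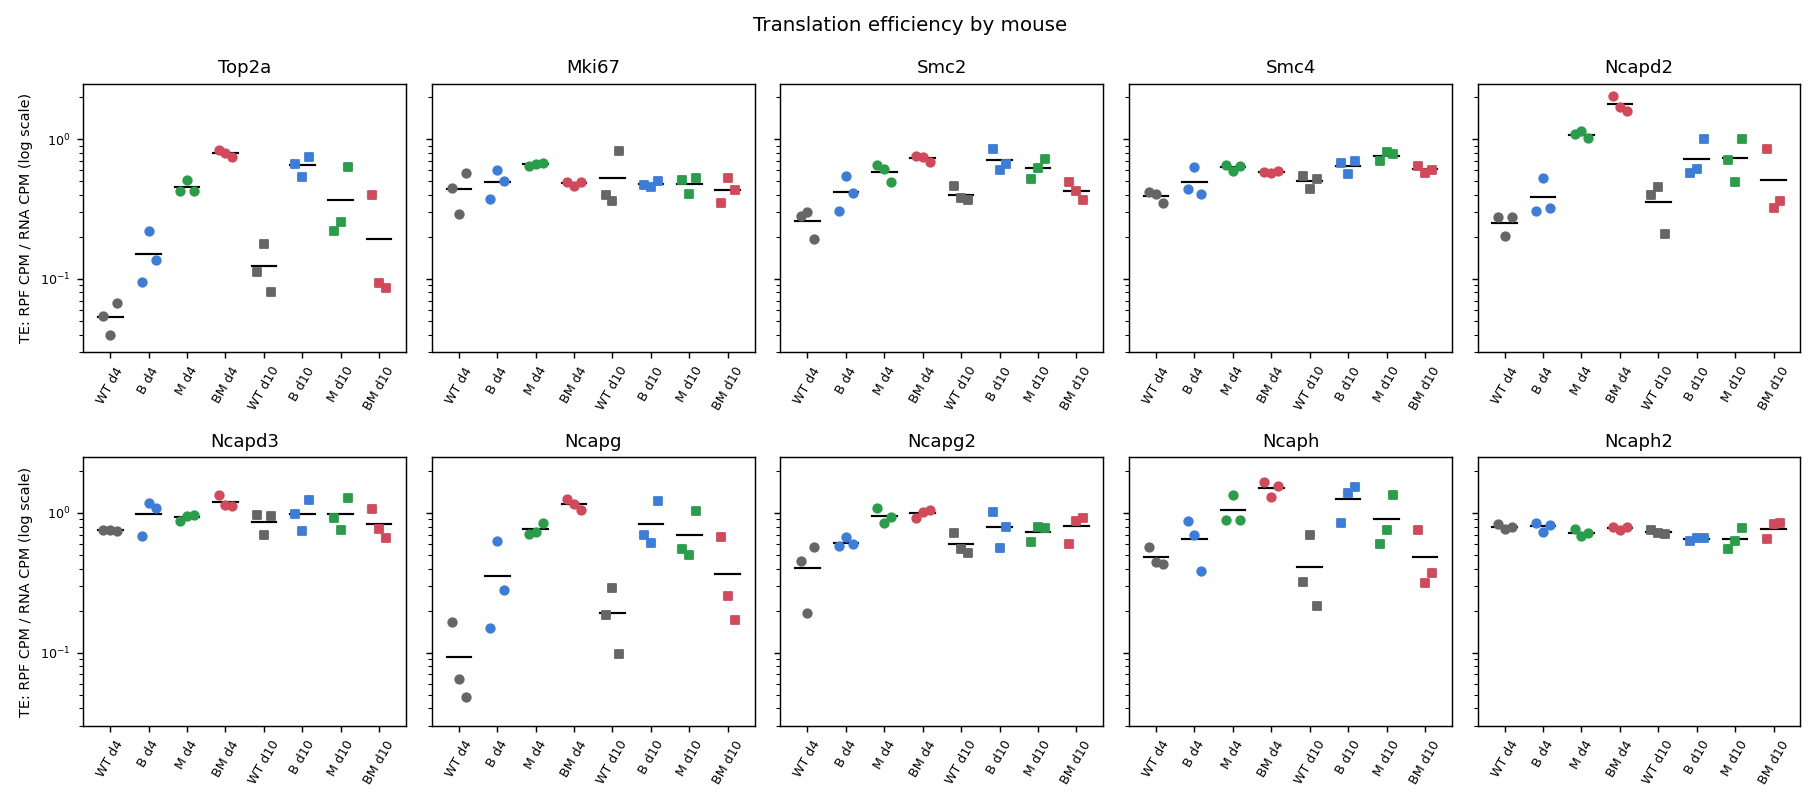
TE (RPF CPM over RNA CPM, log axis) of the 10 genes, 1 point a mouse with a bar at the group mean. Top2a spans 0.0399 to 0.844 and Ncapg 0.0483 to 1.25, the WT mice of day 4 being the lowest for Top2a and BM mouse 1 of day 10 (0.397 and 0.674) lying above the other BM mice of day 10 for both genes, while neighbouring Mki67 groups overlap and Ncaph2 stays between 0.552 and 0.846.

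The fall within BM liver from day 4 to day 10 was tested on the condensin genes. RNA of 8 of 8 fell, beside 20.9% of all genes, and RPFs of 8 of 8, beside 22.6%, with median log2 changes of -1.39 and -2.41. TE of 1 of 8, *Ncapd2*, fell, beside 0.234% (-1.88 ± 0.38, adjusted p = 0.0841). The count was 4 with the mouse as block, beside 1.68% of all genes in that fit. It was also 4 without BM mouse 1 of day 10, whose *Ncapd2* TE of 0.855 lay above the 0.321 and 0.363 of the other two, but that fit called 12.5% of all genes lower. Leaving out any other mouse of the comparison gave 0. *Top2a* and *Mki67* had RPF values of -3.54 ± 0.53 and -3.07 ± 0.28 in this comparison. Set against the change in WT between the days, the BM effect on RNA was lower at day 10 for 6 of the 8, beside 16.6%, that on RPFs for 6 of the 6 counted, beside 18.6%, and that on TE for 1 of 6, *Ncapd2*, beside 0.246%. The TE count was 2 with the mouse as block, beside 1.21%.

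Across the 8 groups, *Top2a* RPFs were highest in BM of day 4 (140.3 ± 36.4 CPM, mean ± SD, n = 3) and B of day 10 (63.7 ± 31.1), each apart from the next group down. The highest M mouse of day 10, at 75.5 CPM, still lay within the range of B of day 10. M of day 4 (38.7 ± 5.53), M of day 10 (34.9 ± 35.1), BM of day 10 (12.2 ± 9.75), B of day 4 (9.47 ± 3.61) and WT of day 10 (7.0 ± 4.06) followed, each overlapping its neighbour. WT of day 4 (3.28 ± 0.781) was lowest, below all WT mice of day 10. The order of *Mki67* RPFs was the same, from 117 ± 34.2 in BM of day 4 to 2.01 ± 0.714 in WT of day 4, although B of day 10 overlapped M of day 4 and BM of day 10 stood above B of day 4. On TE, by which the 2 genes were chosen, neighbouring groups overlapped in 7 of 7 steps of the order for *Mki67*, from 0.661 ± 0.0202 in M of day 4 to 0.435 ± 0.0884 in BM of day 10. For *Top2a* they overlapped in 5 of 7 steps, from 0.796 ± 0.0487 in BM of day 4 to 0.0538 ± 0.0139 in WT of day 4, the exceptions being B of day 10 over M of day 4 and WT of day 10 over WT of day 4.

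Levels of the 10 genes were compared with each other only per length, as RNA TPM, which is scaled to transcript length, and as RPF CPM per kilobase of counted coding sequence. In WT liver of day 4, *Top2a* had the highest RNA of the 10, 13.2 ± 2.35 TPM, and *Mki67* the lowest, 0.490 ± 0.0529 TPM. *Smc4* (11.1 ± 1.89 TPM) and *Ncaph2* (9.96 ± 1.16 TPM) came next. On RPFs the order differed: *Ncaph2* led with 13.2 ± 0.908 CPM per kilobase, *Top2a* had 0.730 ± 0.174, *Mki67* 0.212 ± 0.0756 and *Ncapg* 0.191 ± 0.0530. In BM liver of day 4 *Top2a* was first on RPFs, with 31.2 ± 8.09 CPM per kilobase, ahead of *Smc4* with 24.6 ± 6.87 and *Ncaph2* with 20.6 ± 2.86, ranges that overlapped between *Top2a* and *Smc4*. The RPF level of *Mki67* there was 12.4 ± 3.62 and its RNA 46.3 ± 12.9 TPM. For 7 of the 10 genes the RNA tables listed 1 transcript, while *Smc2* and *Smc4* had 2 and *Ncaph2* 3, whose shares of the gene's RNA were alike in WT and BM liver of day 4 (the counted *Smc2* transcript held 52.7% ± 4.35 in WT and 52.7% ± 1.64 in BM).

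Lists of related chromosome genes were counted in the same way, over the genes that passed the filter in BM and in WT liver of day 4 alike. Of 17 cohesin genes tested, which hold sister chromatids together, 13 did so; RNA of 3 of these rose and 1 fell and RPFs of 8 rose and 1 fell (*Pttg1*, the securin, on both measures), beside 21.3% of all genes that rose and 20.6% that fell for RNA and 26.2% and 24.7% for RPFs. The median RPF change of the 13 was 0.26, and the 4 with the highest RPF CPM, not scaled to length, *Stag2*, *Smc1a*, *Wapl* and *Pds5a*, had RPF changes of 0.25 ± 0.10, 0.51 ± 0.08, 0.05 ± 0.10 and 0.37 ± 0.08, of which that of *Wapl* was not called. By edgeR, TE of 0 of the 13 was called, beside 1.71% of all genes that rose, with 1 at an unadjusted p under 0.05. The other 4 (*Cdca5*, *Sgo1*, *Sgo2a* and *Espl1*, the separase that cleaves cohesin) were below the filter in WT on both measures and are not counted. Of 8 SMC5/6 genes tested, which act in DNA repair, RNA of 2 rose (*Slf1* and *Smc6*) and 1 fell (*Smc5*), and RPFs of 3 rose (*Nsmce1*, *Slf1* and *Smc6*) and 1 fell, beside the same shares of all genes. *Nsmce1* RPFs rose by 0.44 ± 0.10, those of *Smc5* fell (-0.45 ± 0.09), and *Nsmce4a* (0.17 ± 0.10) and *Nsmce3* (-0.10 ± 0.11) were not called.

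Of the topoisomerase list without *Top2a*, RNA of 1 of 8 counted (*Tdp2*) and RPFs of 6 of 8 rose, beside 21.3% and 26.2% of all genes, and 0 fell on either measure. *Top2b*, the paralog, had RNA and RPF changes of 0.03 ± 0.09 (adjusted p = 0.842) and 0.18 ± 0.08 (adjusted p = 0.0949) in BM and a TE value of 0.15 ± 0.12 (adjusted p = 0.799). *Top1*, which cuts 1 strand, had an RPF value of -0.17 ± 0.10 (adjusted p = 0.182), and *Tdp2*, which removes trapped topoisomerase II from DNA, rose by 0.38 ± 0.12. *Top3b* rose by 0.23 ± 0.10. In this list edgeR called TE of 0 of 8, with 0 at an unadjusted p under 0.05, and likewise 0 of 8 in SMC5/6, beside 1.71% of all genes that rose and 0.522% that fell, shares that come to less than 1 gene in a list of 8; DESeq2 was not run on these lists. In the list of chromosome passengers and condensation regulators, 8 of the 16 genes tested were below the filter in WT on RNA and 8 on RPFs, among them *Aurkb* and *Birc5*, and are not counted. RNA of 7 of the other 8 and RPFs of 8 of 8 rose, beside 21.3% and 26.2% of all genes, with medians of 0.47 and 0.85. TE of 2 of 6 rose (*Kmt5a* and *Set*), beside 1.71% of all genes. Its genes with the highest RPF CPM, *Set*, *Nifk* (a partner of Ki-67), *Ppp1cc* and *Smchd1*, had RPF changes of 0.98 ± 0.11, 0.59 ± 0.08, 0.73 ± 0.12 and 0.71 ± 0.10, and *Set* also rose in TE (0.70 ± 0.16, adjusted p = 0.0294). *Pttg1*, *Slf1*, *Smc6*, *Kmt5a* and the genes named as below the filter are named because their counts were small, after their values were seen.

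Markers of liver cell types moved the other way in BM liver at day 4. Unlike the lists above, the marker counts keep markers that were below the filter in 1 of the groups compared. *S100a8* reached the filter's cutoff in 3 WT and 0 BM libraries on both measures. *Col1a1* RNA reached it in 3 and 2, *Epcam* RNA in 2 and 1 and *Krt19* RPFs in 2 and 3. For a marker that passed mostly through WT, the filter itself favours a fall. Of 33 tested in RNA, 0 rose and 30 fell, and of 34 tested in RPFs, 0 rose and 28 fell, beside the 20.6% and 24.7% of all genes that fell (edgeR; 30 and 27 had an unadjusted p under 0.05, and DESeq2 was not run on them). The summed RNA level of 6 hepatocyte markers was 81806 to 92905 CPM in WT and 31021 to 38837 CPM in BM, and that of 6 Kupffer cell markers 265 to 330 and 120 to 142 CPM. Endothelial markers summed to 564 to 584 CPM in WT and 318 to 353 in BM, stellate and fibroblast markers to 400 to 432 and 209 to 275, and cholangiocyte markers to 103 to 185 and 80.2 to 117. Lymphocyte markers summed to 14.9 to 27.4 and 9.34 to 11.8 CPM, neutrophil markers to 5.05 to 8.68 and 0.890 to 2.21, and erythroid markers to 386 to 409 and 151 to 214. The lymphocyte markers *Cd3e*, *Cd79a* and *Nkg7* were at 0 RNA counts in 9, 10 and 13 of the 24 libraries. In BM liver at day 10, RNA of 5 of 31 tested markers was higher than in WT, beside 22.9% of all genes, and 14 were lower, beside 22.8%. The Kupffer cell sum was 266 to 317 CPM in WT and 319.6 to 364 in BM, and the hepatocyte sum 87540 to 89667 and 29365 to 37070. Of the hepatocyte markers, mean RNA CPM in WT and BM was 67403 and 18457 for *Alb*, 5469 and 1886 for *Apoa1*, 4569 and 1117 for *Ttr*, 5108 and 640.3 for *Serpina1c*, 503 and 473 for *Hnf4a* and 5710 and 11397 for *Cps1*, so that 1 of the 6 was higher in BM. Endothelial (373 to 454 CPM against 616 to 642) and stellate and fibroblast (234 to 253 against 440.4 to 526) RNA sums of BM lay below WT, and cholangiocyte (104 to 131), lymphocyte (14 to 19.7), neutrophil (1.83 to 6.16) and erythroid (144 to 601) sums overlapped it. On RPFs, Kupffer cell (833 to 894 against 541 to 745 CPM) and lymphocyte (41.5 to 43.1 against 26.1 to 40.7) sums of BM lay above WT and stellate and fibroblast sums (699 to 736 against 760.4 to 917) below. In B liver of day 10 the Kupffer cell and hepatocyte RNA sums were 281 to 295 and 30767 to 37250 CPM. Neutrophil markers stood apart there, at 4.65 to 9.84 RNA CPM against 1.47 to 3.72 in WT and at 12.5 to 33.3 RPF CPM against 4.81 to 12.0, and endothelial and stellate and fibroblast RNA sums were lower, at 427 to 537 against 616 to 642 and 231 to 297 against 440.4 to 526. Cholangiocyte, lymphocyte and erythroid RNA sums of B and WT overlapped, at 94.2 to 127 against 84.7 to 142, 24.9 to 30.8 against 18.4 to 26.4 and 502 to 619 against 375 to 587.

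The marker counts of M and B liver likewise keep any marker below the filter in 1 of the groups compared. In M liver of day 4, RNA of 15 of 34 tested markers fell, beside 10.3% of all genes, and RPFs of 18 of 33, beside 14.7%. The RPF markers that fell included 5 of 6 of hepatocytes and 4 of 6 of endothelium. RNA sums in M were 51230 to 68892 CPM for hepatocytes, 393 to 506 for endothelium, 295 to 358 for stellate cells and fibroblasts, 205 to 278 for erythroid cells and 0.760 to 2.08 for neutrophils, each below every WT mouse. The Kupffer cell sum of 176 to 469 and the lymphocyte sum of 13.3 to 33.9 ranged past WT on both sides, and the cholangiocyte sum of 101 to 122 overlapped WT. In B liver of day 4, RNA of 8 of 34 fell, beside 3.73%, and RPFs of 7 of 34, beside 6.26%. Its hepatocyte sum was 63186 to 82375 CPM, overlapping WT, while those of Kupffer cells (200.1 to 233), endothelium (503 to 555), stellate cells and fibroblasts (367 to 399) and neutrophils (1.04 to 1.62) lay below WT; cholangiocyte (119.5 to 134), lymphocyte (14.7 to 17.4) and erythroid (301 to 554) sums overlapped it. In M liver of day 10, RNA of 13 of 32 fell, beside 7.12%, and RPFs of 11 of 34, beside 8.8%. The hepatocyte sum was 39224 to 48273 CPM, the endothelial sum 419 to 465, the stellate and fibroblast sum 335 to 368 and the erythroid sum 198 to 328, all below WT of that day, while Kupffer cell (219 to 360.2), cholangiocyte (112 to 136), lymphocyte (15.0 to 25.7) and neutrophil (0.221 to 2.89) sums overlapped WT. The part of these markers in the results on the 10 genes was not tested in any comparison.

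The genes whose RPFs followed *Top2a* most closely over the 24 mice were *Ncapg* (Pearson's r = 0.982), *Ccna2* (0.981), *Aurkb* (0.980), *Tacc3* (0.979) and *Kif11* (0.979), out of 10871 genes with a mean of at least 1 CPM in both library types. For *Mki67* they were *Cdk1*, *Nusap1*, *Iqgap3*, *Bub1b* and *Ccnb1* (all between 0.983 and 0.984). *Top2a* and *Mki67* had an r of 0.957 with each other on RPFs. On TE, *Top2a* was followed by *Fanci* (0.962), *Plk1* (0.953), *Tpx2* (0.949), *Kif2c* (0.947) and *Ncapg* (0.945). The rest of the set stood at 0.920 (*Ncapd2*), 0.902 (*Smc2*), 0.849 (*Ncaph*), 0.677 (*Ncapg2*), 0.668 (*Smc4* and *Ncapd3*), 0.224 (*Mki67*) and -0.384 (*Ncaph2*). The TE of *Mki67* was most like that of *Tpr* (0.744), *Rrp1b* (0.734), *Acot11* (0.721), *Dntt* (0.700) and *Tbl1xr1* (0.683). These correlations are descriptions over mice of 8 groups, and the values of a mouse share its libraries and their depth. With Spearman's rho, 1 of the 5 genes was shared for *Top2a* RPFs, 1 for *Mki67* RPFs, 4 for *Top2a* TE and 3 for *Mki67* TE; with a prior count of 5 in place of 1, these numbers were 2, 5, 4 and 4.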

How the data were processed

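RPF and cytoplasmic RNA libraries of the same 24 mice were analysed. The authors trimmed RPF reads with Cutadapt 1.18, removed duplicates by molecular identifiers and deposited raw counts over the coding sequence of 1 transcript a gene (GENCODE vM27, GRCm39). For RNA, the authors aligned reads with Bowtie2 2.3.5.1 and deposited RSEM 1.3.3 expected counts and TPM per transcript. Here expected counts were summed per gene and rounded. Genes passed filterByExpr (minimum count 10, total 15); members below it in 1 of the groups compared were left out of counts. RNA, RPF and TE (the interaction of genotype and library type) were tested with edgeR 4.0.16 in R 4.3.3, quasi-likelihood. Only the mice of the compared groups entered a fit. Calls used Benjamini-Hochberg over all genes and an adjusted p under 0.1. RNA and RPF p-values measure the spread between 3 mice a group. TE p-values without the mouse as block take the 2 libraries of a mouse as independent, so they measure the spread between libraries. Alternatives were DESeq2 1.42.0, its size factors, no filter, RNA of the counted transcript, each mouse left out and, for TE, the mouse as block. Pairing comes from the study design, 1 mouse giving both libraries: RPF and RNA deviations from group means correlated in 24 of 24 mice (0.158 to 0.610). Scripts were tested on simulated data. Strandedness of the counting is not given in the sources used here.

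The members and lists were chosen with earlier results of these data known. Named were the 10 genes, the 4 genes with the highest mean RPF CPM of each related list, *Top2b*, and the 5 genes closest to *Top2a* and *Mki67* by Pearson correlation of log2 RPF CPM and log2 TE with a prior count of 1.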

Additional observations from a re-analysis of the deposited data

Results flagged for a closer look

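The BM effect against WT differed between day 10 and day 4 by the edgeR test of the difference itself for 13 measurements of the condensin genes, all lower at day 10. For RNA the log2 differences were -1.89 for *Ncapg*, -1.81 for *Ncapg2*, -2.17 for *Ncaph*, -0.60 for *Ncaph2*, -1.87 for *Smc2* and -1.04 for *Smc4*. For RPFs they were -2.93 for *Ncapd2*, -1.22 for *Ncapd3*, -2.80 for *Ncapg2*, -0.54 for *Ncaph2*, -3.27 for *Smc2* and -1.33 for *Smc4*. For TE the difference was -2.36 for *Ncapd2*, a call that was lost in some fits with 1 mouse left out. Beside these, 16.6% of all genes tested were lower for RNA, 18.6% for RPFs and 0.246% for TE.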

How the results depend on the processing

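No direction of a called gene reversed. Counts are over the condensin genes that passed the filter in each group compared, 8 for RNA and 6 to 8 for RPFs and TE. The mouse as replicate block uses the pairing of libraries. With it, TE calls were 6 for BM at day 4 (beside 3.77% of all genes) and 3 for B at day 10 (1.32%). They were 1 for M at day 10 (0.268%) and 2 for BM against M (1.37%). For BM day 10 against day 4 they were 4 (1.68%), and for the BM effect between days 2 (1.21%). Most of the counts that follow have no share of all genes in the same fit beside them. They show only how far a count moved, not whether it exceeds that share. DESeq2 gave 2 TE calls for BM day 10 against day 4, and 3 and 1 RNA calls for M at day 4 and day 10. With DESeq2's size factors or without the filter, B at day 4 had 2 RPF calls; without the filter, M at day 10 had 2 RNA calls. With RNA of the counted transcript, B at day 10 had 2 RNA calls. Leaving out 1 mouse gave 0 to 3 RPF calls for B at day 4, 1 to 2 TE calls for M and 1 to 4 for BM (4 without BM mouse 1) at day 4, 1 to 4 RNA calls for B at day 10, 0 to 1 RNA and 0 to 3 RPF calls for M at day 10, 2 to 4 RPF calls for BM at day 10, 0 to 4 TE calls for BM day 10 against day 4 and 0 to 2 for the BM effect (2 without BM mouse 1 of day 10, a fit in which 7.81% of all genes were lower). With 1 mouse left out of a group of 3, 2 remain. TE of low genes in WT rests on few RPFs.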
